A study of Mus musculus with 10 samples.

Results

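The third of 4 unnamed comparisons in the authors' deposited table sets 2 RNA sequencing libraries, the numerator, against 2 others, the reference. Described here are the genes whose base mean, the read count normalised for library size and averaged over the 4 libraries, was at least 2 CPM, the counts-per-million share of the summed base means, or 31.8 normalised reads. Genes of 3 lists, for heat shock and immediate early genes, endoplasmic reticulum stress, and the cell cycle, were left out. The limit was passed by 13512 of the 32689 genes listed for the comparison, and 172 of those were in the 3 lists, which left 13340 genes. The whole table holds 35395 identifiers over its 4 comparisons. SLCO5A1, TMEM232 and MT-TM stood just inside the limit, with base means of 31.8, 31.8 and 31.9 normalised reads, and LRRIQ1, CREG2 and ANKDD1A just outside, with 31.7 each.

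The labels describe fat from around the epididymis, a visceral depot, of male C57BL/6 mice, and ask how raising or lowering the growth factor IGF2 changed its RNA. Diet-induced obese mice received Ad-IGF2 adenovirus (2 samples) or Ad-GFP adenovirus (3 samples) by injection into that fat 2 times a week for 4 weeks. Male mice aged 3 to 4 weeks received IGF2-RNAi lentivirus (2 samples) or NC-RNAi lentivirus (3 samples), both carrying a short hairpin RNA vector, by the tail vein. Per the labels the adenoviral vector carries the CMV promoter, which is active in most cell types, and the hairpins are driven by the U6 promoter. None of these groups can be joined to the comparison, because all 32689 of its gene identifiers are human, so the 4 libraries are called by their side only and nothing is said of IGF2 in mouse fat.

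The whole reads of each library could be solved from the base means, since every base mean averages whole reads that were divided by 1 size factor per library. This succeeded for 32628 of 32689 genes and for 13339 of the 13340 described. The numerator libraries held 14762094 and 12211240 reads, and the reference libraries 21153400 and 16909858 reads. Genes with at least 1 read numbered 29863 and 27899 in the numerator libraries, against 25278 and 26387 in the reference libraries, although the reference libraries were deeper. Mitochondrial genes took 5.26% and 5.01% of numerator reads, against 4.59% and 4.55% of reference reads. Between the 2 libraries of a side, the log2 ratio of genes with over 50 normalised reads in both had an SD of 0.28 in the numerator and 0.32 in the reference. Counts within a side differed by more than sampling noise, with a median chi-square per gene of 3.09 in the numerator and 4.57 in the reference, so the libraries were treated as 2 samples a side. Nothing states whether they came from separate cultures, animals or donors, so the p-values measure only the spread between these libraries. Values below are normalised reads, called numerator reads and reference reads, with the first and the second library of a side always in the same order.

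The genes left out describe the working name of the comparison, a stressed numerator. They cannot test it, because the 3 lists were chosen with earlier results of these data known. Of all 13340 genes described, 16.6% were called higher and 26.4% lower. Of 46 heat shock and immediate early genes of at least 2 CPM, 32 were called higher and 2 lower, and of 41 genes of endoplasmic reticulum stress 31 were called higher and 2 lower. Of 85 cell cycle genes, 0 were called higher and 80 lower. Markers of the labelled tissue were close to absent. Of 8 fat markers, among them ADIPOQ, LEP and PLIN1, 0 reached 2 CPM, and their summed level was 47 and 29.5 numerator reads and 5.52 and 8.07 reference reads. Of 8 epithelial markers only KRT8 and KRT18 reached 2 CPM, and the list summed to 5463 and 6197 numerator reads and 11094 and 8998 reference reads. The 6 markers of endothelium, 6 of leukocytes, 6 of skeletal muscle and 4 of red blood cells had 0 genes at 2 CPM. Of the other marker lists, 3 of 9 macrophage, 2 of 8 fibroblast, 1 of 6 liver, 3 of 6 neural and 3 of 5 melanocyte genes reached it. In bulk libraries, fewer cells of a type and less RNA per cell cannot be told apart.

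Cells exposed to harmful conditions change many gene programmes beside heat shock proteins and chaperones. The transcription factor p53 induces genes of growth arrest and cell death, NF-kappaB induces inflammatory and survival genes, and the factor ATF4 induces amino acid transporters. Lysosomes, autophagy and the proteasome remove damaged proteins and organelles, while ribosome production, nucleotide synthesis and DNA repair accompany growth and division.

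Of the 13340 genes, 2216 were called higher in the numerator (16.6%) and 3523 lower (26.4%) at an adjusted p under 0.05 in the authors' deposited table. Over all 22550 genes with an adjusted p, 6971 were called (30.9%), with 14.8% higher and 16.1% lower. As deposited, the rises were fewer but larger. The median called rise had a log2 fold change of 1.22 and the median called fall one of -0.80 by the authors' deposited table. Past a log2 fold change of 1 in size stood 1333 called rises and 1055 called falls. Past 2 stood 587 and 46, and past 3 stood 318 and 4. The limit of 2 CPM applies to the mean of all 4 libraries, so these rises include genes with hardly any reference reads. IGHE, for one, had 127 and 148 whole reads in the numerator libraries and 0 in both reference libraries. The size of such folds rests on few or no reference reads, and their part in the larger rises was not tested. Over genes of at least 2 CPM the authors' deposited table has a median log2 fold change of -0.16. Relative to that shift, which is called centring below, 2834 genes were called higher (21.2%) and 2469 lower (18.5%), so that 53.4% of called genes were higher, against 38.6% as deposited. Scaling to total reads, a shift of -0.18, gave 2948 higher and 2322 lower calls, of which 55.9% were higher. The balance between rises and falls therefore depended on the scaling, and counts after centring are given beside each gene list.

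The libraries themselves were apart for most called genes. Both numerator libraries stood above both reference libraries in 4179 of 13339 solved genes (31.3%), and below them in 6310 (47.3%). Of the called genes, 2214 of 2215 solved rises and 3523 of 3523 falls had no overlap between the sides. This holds for all 245 genes taken by the rule for named genes, from which those described below come. The calls rest on these same libraries and the named genes were taken from the calls, so this is not separate support. Where library values of a single gene are given below, the sides therefore did not overlap.

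The direction of change went with the base mean, which is averaged over both sides. Of 1987 genes from 2 to 5 CPM, 25.4% were called higher and 3.93% lower, with a median log2 fold change of 0.36. From 5 to 20 CPM the shares were 18.04% and 16.8% of 3315 genes (median -0.058), and from 20 to 100 CPM 14.2% and 33.2% of 5792 genes (median -0.22). From 100 to 500 CPM 12.9% of 2051 genes were called higher and 42.7% lower (median -0.29), and above 500 CPM 12.3% of 195 genes were called higher and 45.1% lower (median -0.30). The median standard error was 0.54 in the lowest class and 0.14 in the highest, and its part in these shares was not tested. The lowest class also holds genes that reach it by their numerator reads alone. IGHE, at 4.87 CPM, had 127 and 148 whole reads in the numerator libraries and 0 in both reference libraries. The part of such genes in the shares was not tested either.

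The kinds of gene followed this order in part. Among all genes described, 16.6% were called higher and 26.4% lower. Of 413 zinc finger genes named ZNF, mainly DNA-binding proteins, 85 were called higher and 34 lower (median log2 fold change 0.16, median level 14.9 CPM). Long intergenic noncoding RNAs were called higher in 38 of 125 cases and lower in 13 (median 0.37, level 6.41 CPM), and antisense RNAs in 51 and 22 of 221 cases (median 0.20, level 5.28 CPM). The TRIM family of ubiquitin ligases had 14 rises and 7 falls among 44 genes at a higher median level of 38.7 CPM (median 0.23). Genes named for sequence clones had 197 rises and 66 falls among 841, whereas genes named as pseudogenes had 34 rises and 67 falls among 308 and may share reads with their parent genes. Hosts of small nucleolar RNAs, the SNHG genes, had 0 rises and 6 falls among 18. Of 217 solute carriers 56 were called higher and 41 lower, with a median of 0.03.

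The 12 largest rises among genes with at least 2 CPM on both sides were led by TNFRSF9 and TRAF1. The first is a member of the tumour necrosis factor receptor family. TNFRSF9, the costimulatory receptor also called 4-1BB, had 1030 and 867 numerator reads against 53.6 and 23.2 reference reads, a log2 fold change of 4.60 (SE 0.29) by the authors' deposited table. TRAF1, an adaptor that binds such receptors, had 2123 and 1731 numerator reads against 134 and 37.3 reference reads, with 4.49 (SE 0.82) by the authors' deposited table. Its reference libraries differed from each other several fold. PLA2G4C, a phospholipase A2, had 1455 and 1042 numerator reads against 118 and 32.3 reference reads, likewise with unequal reference libraries. GSTO2, a glutathione transferase, had 894 and 544 numerator reads against 44.2 and 48.4 reference reads, and SLC12A7, a potassium and chloride cotransporter, had 1270 and 961 numerator reads against 93.04 and 49.4 reference reads. The calcium pump gene ATP2A1, known from fast skeletal muscle, had 501 and 391 numerator reads against 37.8 and 38.3 reference reads, while the 6 skeletal muscle markers summed to 56 and 41.8 numerator reads against 11.04 and 13.1 reference reads. UCKL1-AS1, an antisense RNA, had 499 and 405 numerator reads against 38.6 and 42.4 reference reads, and since no source states that strand was used in counting, its reads cannot be told from those of its partner gene. The other 5, IL32, CXCL8, C3, HMOX1 and IFIT2, belong to the groups below.

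**Figure D1:**
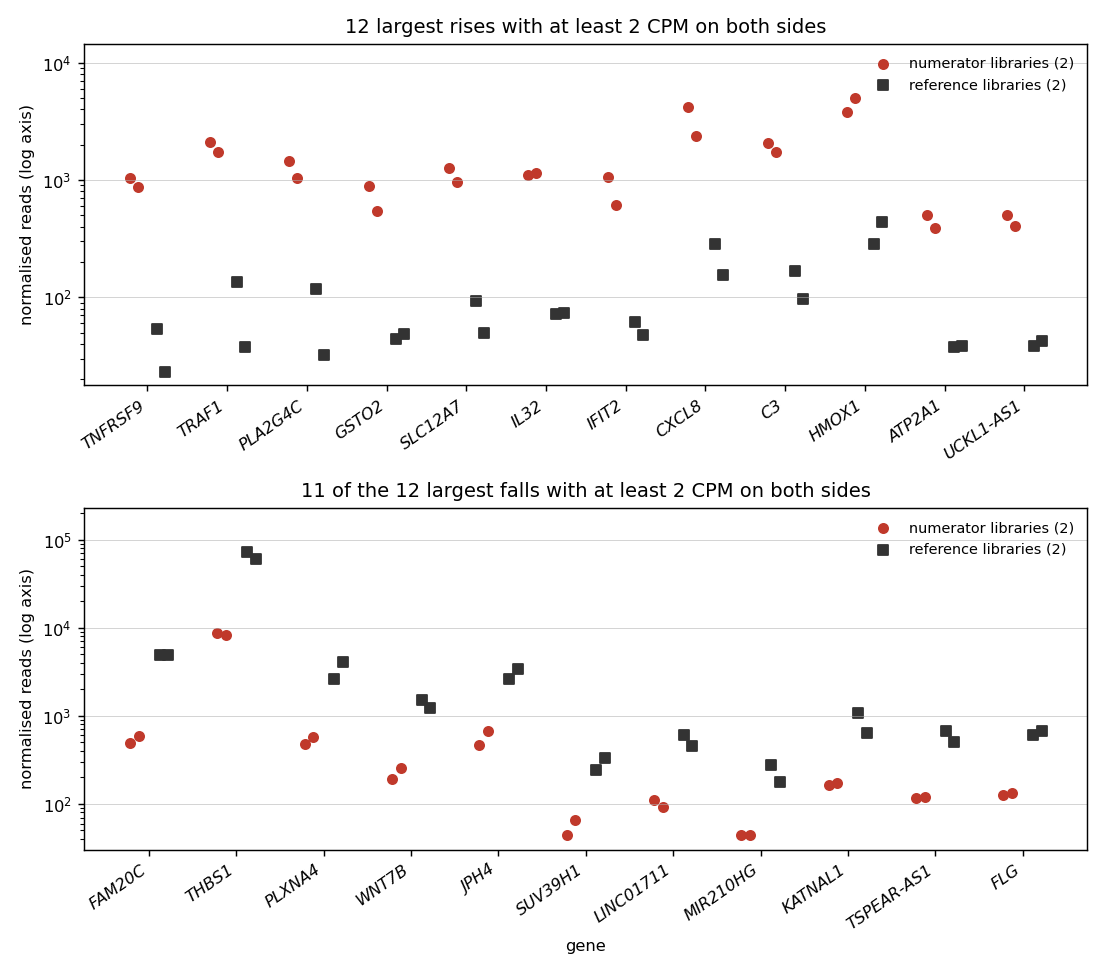
Normalised reads (vertical log axis) of the 12 largest rises (top) and 11 of the 12 largest falls (bottom) among genes with at least 2 CPM on both sides, with numerator libraries as red circles and reference libraries as dark squares to their right. Both numerator libraries lie above both reference libraries in the top panel, as for CXCL8 with 4159 and 2368 numerator reads against 284 and 155 reference reads, and below them in the bottom panel.

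Genes of the NF-kappaB pathway were mostly higher. Of 22 genes 13 were called higher and 2 lower (15 and 0 after centring), with a median log2 fold change of 0.62. RELB, a subunit of the alternative pathway, had 1382 and 1080.2 numerator reads against 197 and 156 reference reads and a log2 fold change of 2.80 (SE 0.21) by the authors' deposited table (adjusted p = 5.01e-36). NFKB2, the precursor of its partner p52, had 3964 and 3402 numerator reads against 997 and 587 reference reads and 2.21 (SE 0.21) by the authors' deposited table. Of the inhibitors of the pathway, NFKBIE and CYLD, named for their small p, moved the same way. NFKBIE, which holds the factor in the cytosol, had 519 and 423 numerator reads against 145 and 119 reference reads. The deubiquitinase CYLD had 2125 and 1690.5 numerator reads against 768 and 587 reference reads.

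Secreted signals and their receptors followed. Of 37 chemokines, interleukins and receptors 18 were called higher and 4 lower (20 and 2 after centring), with a median of 0.71. CXCL8, the chemokine that draws neutrophils, had 4159 and 2368 numerator reads against 284 and 155 reference reads, a log2 fold change of 3.89 (SE 0.57) by the authors' deposited table. IL32, a proinflammatory cytokine, had 1091 and 1148 numerator reads against 72.5 and 73.7 reference reads, with 3.94 (SE 0.22) by the authors' deposited table. IL7R, a receptor subunit for interleukin 7, had 2425 and 1790.2 numerator reads against 299 and 363 reference reads, and IL12A, a subunit of interleukin 12, had 315 and 266 numerator reads against 62.3 and 69.6 reference reads. Markers of white blood cells had few reads. The 6 leukocyte markers summed to 42 and 30.8 numerator reads against 7.88 and 6.05 reference reads, with MS4A1 and NKG7 not listed. The 9 macrophage markers summed to 384 and 327 numerator reads against 189 and 111 reference reads, and 1 of the 3 at 2 CPM was called higher. The part of these low levels in the result was not tested.

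Of 20 genes of MHC class I and antigen presentation 10 were called higher and 1 lower (11 and 1 after centring), with a median of 0.43. TAP1, which carries peptides into the endoplasmic reticulum for loading, had 1462 and 1645 numerator reads against 703 and 535 reference reads, and ULBP2, a stress ligand of the NKG2D receptor, had 650 and 646 numerator reads against 276 and 212 reference reads. HLA-B had 1523 and 1588 numerator reads against 869.7 and 483 reference reads, but reads of HLA genes can be split between near-identical relatives and are uncertain. The single fall was CIITA, the master regulator of MHC class II genes, with 110 and 141 numerator reads against 275 and 492 reference reads and a log2 fold change of -1.61 (SE 0.32) by the authors' deposited table. IFIT2, an RNA-binding protein induced by interferon, had 1060 and 613 numerator reads against 61.5 and 47.4 reference reads. Of 23 genes of complement, coagulation and the plasminogen system 8 were called higher and 7 lower (8 and 5 after centring). C3, the central complement protein, had 2044 and 1742 numerator reads against 168 and 95.9 reference reads, a log2 fold change of 3.83 (SE 0.23) by the authors' deposited table, whereas the plasminogen activator PLAU had 2053 and 2618 numerator reads against 7343 and 9361 reference reads and the complement inhibitor CD59 2790 and 3078 numerator reads against 5219.7 and 7060.1 reference reads.

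**Figure D2:**
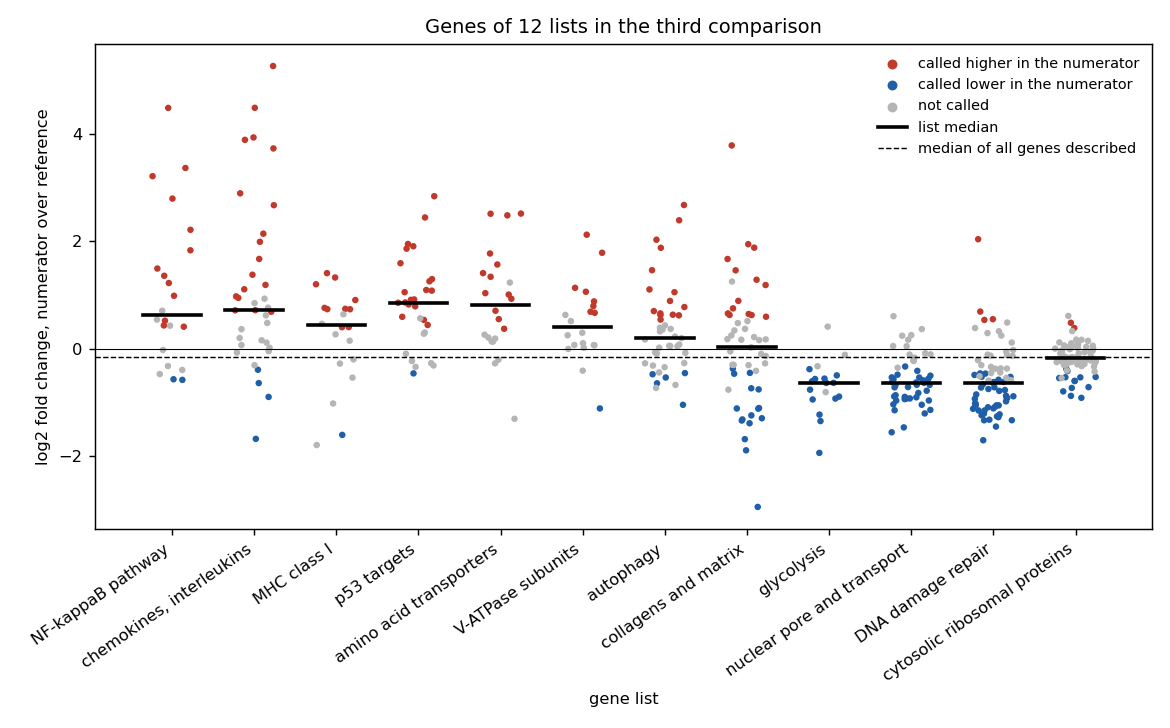
Log2 fold changes of single genes in 12 of the gene lists in the authors' deposited table, with called rises in red, called falls in blue, other genes in grey and the list median as a black bar. The p53 targets and amino acid transporters have medians of 0.85 and 0.82, glycolysis and nuclear transport have medians of -0.64 and -0.63, and the dashed line marks the median of all genes described, -0.16.

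Targets of p53 had the highest share of rises of the 53 gene lists. Of 29 targets 20 were called higher and 1 lower (21 and 0 after centring), with a median of 0.85. MDM2, the ligase that degrades p53, had 13181 and 9424 numerator reads against 5407 and 5290 reference reads, a log2 fold change of 1.08 (SE 0.17) by the authors' deposited table. GDF15, a secreted hormone of stressed cells, had 7660 and 7254 numerator reads against 1068 and 1013 reference reads, with 2.84 (SE 0.14) by the authors' deposited table (adjusted p = 1.84e-85). SESN2, a sestrin that restrains the growth kinase mTORC1, had 4158 and 3237 numerator reads against 644 and 715 reference reads, and EDA2R, a receptor of the tumour necrosis factor family, had 2446 and 1873 numerator reads against 519.6 and 599 reference reads. SESN2 and GDF15 are known as targets of ATF4 as well.

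Death receptors and BCL2 family genes were mixed. Of 35 such genes 12 were called higher and 7 lower (14 and 5 after centring), with a median of 0.16. TNFRSF10B, the death receptor DR5, had 16962 and 14919 numerator reads against 6556 and 6812 reference reads, with a log2 fold change of 1.25 (SE 0.14) by the authors' deposited table. The pro-death gene PMAIP1, also called NOXA, had 3294 and 2365 numerator reads against 632 and 926 reference reads, and CFLAR, which blocks caspase-8, had 1309 and 1061 numerator reads against 444 and 373 reference reads. TNFRSF1A, the main receptor for tumour necrosis factor, went down, with 919 and 1113 numerator reads against 2327 and 2298 reference reads and -1.19 (SE 0.16) by the authors' deposited table.

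Amino acid transporter genes were higher or not called. Of 22 amino acid transporters 13 were called higher and 0 lower (13 and 0 after centring), with a median of 0.82. SLC3A2, the shared heavy chain of several transporters, had 17543 and 14772 numerator reads against 2309 and 3339 reference reads, a log2 fold change of 2.52 (SE 0.18) by the authors' deposited table. Its partner SLC7A5, which brings in large neutral amino acids, had 21894 and 19348 numerator reads against 6075 and 9481 reference reads, with 1.41 (SE 0.19) by the authors' deposited table. SLC1A5, a glutamine carrier, had 9428 and 9374 numerator reads against 2981 and 4458 reference reads, the glycine carrier SLC6A9 had 979 and 949 numerator reads against 293 and 270.5 reference reads, and SLC43A2 had 342 and 314 numerator reads against 44.2 and 71.7 reference reads. The reference libraries of SLC7A5 and SLC1A5 differed from each other, yet the numerator libraries stood above both.

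Genes of autophagy and lysosomes were partly higher, and genes of the proteasome were partly lower as deposited. Of 43 autophagy genes 15 were called higher and 5 lower (19 and 0 after centring), and of 46 lysosomal hydrolases and membrane proteins 15 were called higher and 7 lower (20 and 3 after centring). SQSTM1, the receptor p62 that brings ubiquitin-tagged cargo to autophagosomes, had 29533 and 28562 numerator reads against 7804 and 7994 reference reads, a log2 fold change of 1.88 (SE 0.13) by the authors' deposited table. MAP1LC3B, which coats the autophagosome, had 6163 and 5108 numerator reads against 826 and 939 reference reads, with 2.68 (SE 0.16) by the authors' deposited table, though it may share reads with its near copy MAP1LC3B2. GABARAPL1, a relative of it, had 892 and 963 numerator reads against 264 and 189 reference reads. Of the lysosomal genes, the cholesterol exporter NPC1 had 4949 and 4173 numerator reads against 2085 and 2348 reference reads, the protease CTSS 242 and 166 numerator reads against 19.7 and 29.3 reference reads and PSAP, the precursor of lipid-binding saposins, 17403 and 16927 numerator reads against 11319 and 9692 reference reads. Of 20 subunits of the V-ATPase, the pump that acidifies lysosomes, 8 were called higher and 1 lower (10 and 1 after centring); ATP6V1B2 had 2958 and 2666 numerator reads against 1217 and 1350.2 reference reads. Of 50 proteasome genes 2 were called higher and 19 lower (3 and 10 after centring). After centring, the share of proteasome falls was near the 18.5% of all genes described. PSMD2, of the regulatory particle, had 5952 and 7552 numerator reads against 12843 and 15928 reference reads, and its ATPase PSMC5 had 1899 and 2169 numerator reads against 3632 and 3432 reference reads. Of 38 ubiquitin genes and conjugating enzymes 7 were called higher and 8 lower (9 and 7 after centring), with UBB, a polyubiquitin gene, at 14768 and 13888 numerator reads against 7579.6 and 7926 reference reads.

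In oxidative defence, HMOX1, which breaks down haem, had 3790 and 5004 numerator reads against 285 and 440.0 reference reads, a log2 fold change of 3.60 (SE 0.21) by the authors' deposited table. OSGIN1, an oxidative stress growth inhibitor, had 601 and 805 numerator reads against 76.5 and 114 reference reads, and the mitochondrial superoxide dismutase SOD2 had 4349 and 3708 numerator reads against 697 and 578 reference reads. The peroxide-degrading CAT went the other way, with 316 and 357 numerator reads against 888 and 708 reference reads. Over the whole list of 38 NRF2 targets and glutathione genes 8 were called higher and 5 lower (16 and 5 after centring), so its count of rises depended on the scaling. Of 20 metallothioneins and zinc transporters 4 were called higher and 4 lower (6 and 2 after centring), and SLC39A14, a zinc importer, had 8278 and 8198 numerator reads against 4014 and 4417 reference reads.

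The 11 genes described of the 12 largest falls with at least 2 CPM on both sides included several extracellular and guidance proteins. FAM20C, a kinase of secreted proteins, had 497 and 593 numerator reads against 4854 and 4882 reference reads, a log2 fold change of -3.16 (SE 0.16) by the authors' deposited table. THBS1, the matrix protein thrombospondin, had 8597 and 8341 numerator reads against 71529.6 and 59748 reference reads, with an adjusted p of 2.40e-91 in the authors' deposited table. PLXNA4, a semaphorin receptor, had 482 and 582 numerator reads against 2641 and 4115 reference reads, and the secreted ligand WNT7B had 192 and 255 numerator reads against 1498 and 1226 reference reads. JPH4, which ties the endoplasmic reticulum to the cell surface, had 465 and 669 numerator reads against 2590.1 and 3415 reference reads. SUV39H1, a methyltransferase of silent chromatin, had 45 and 65.2 numerator reads against 241 and 332 reference reads, and KATNAL1, a microtubule-severing protein, had 163 and 173 numerator reads against 1073 and 635 reference reads. The skin barrier gene FLG had 128 and 133 numerator reads against 608 and 680.2 reference reads. MIR210HG, the host transcript of a hypoxia microRNA, had 44 and 44.3 numerator reads against 279.9 and 178 reference reads, LINC01711 had 111 and 92.3 numerator reads against 605 and 454 reference reads and the antisense RNA TSPEAR-AS1 had 116 and 119 numerator reads against 673 and 506 reference reads.

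Matrix genes moved in both directions. Of 51 collagens and matrix genes 14 were called higher and 16 lower (16 and 13 after centring), with a median of 0.02. SPARC, a collagen-binding protein, had 14880 and 14325 numerator reads against 38849.7 and 35219.6 reference reads, a log2 fold change of -1.34 (SE 0.13) by the authors' deposited table, and the proteoglycan VCAN had 1344 and 1245 numerator reads against 4104 and 4255 reference reads. COL6A3, a chain of collagen VI, had 18067 and 20730.1 numerator reads against 36813 and 55235 reference reads, with -1.25 (SE 0.18) by the authors' deposited table. LAMB3, a chain of the epithelial laminin 332, rose, with 38172 and 34025 numerator reads against 12195 and 10493 reference reads and 1.67 (SE 0.14) by the authors' deposited table. Of 22 matrix proteases 3 were called higher and 9 lower (3 and 4 after centring), and of 25 integrins 6 were called higher and 13 lower (6 and 9 after centring). MMP25, a membrane-bound protease known from leukocytes, had 1459 and 741 numerator reads against 16.6 and 19.2 reference reads, whereas ADAM9 had 2976 and 3151 numerator reads against 4616 and 6022 reference reads and the collagen receptor ITGA2 3550 and 4106 numerator reads against 8982 and 9372 reference reads. Another collagen-binding integrin, ITGA1, rose, with 3165 and 2427 numerator reads against 1126 and 1186 reference reads. FERMT3, an integrin activator of blood cells, had 938 and 647 numerator reads against 26.02 and 16.1 reference reads.

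Among genes of growth and guidance signals, those of the Wnt and TGF-beta pathways, regulators of G protein signalling and phosphodiesterases were called lower more often than higher, as deposited and after centring. The balance of MAP kinase feedback genes turned on centring, YAP and TAZ pathway genes were then even, and Notch pathway genes had more rises than falls on both scales. The share of Notch rises was near that of all genes described, 16.6% as deposited and 21.2% after centring. As deposited, the share of YAP and TAZ falls was likewise near the 26.4% of all genes described. Of 30 Wnt pathway genes 2 were called higher and 10 lower (2 and 8 after centring), and WNT5A had 483 and 557 numerator reads against 2242 and 2615 reference reads, a log2 fold change of -2.22 (SE 0.17) by the authors' deposited table. Of 36 genes of the TGF-beta and BMP pathway 3 were called higher and 14 lower (5 and 10 after centring), among them the ligand TGFB1 with 1221 and 1524 numerator reads against 2833 and 2735 reference reads and the signal carrier SMAD3 with 2066 and 1982 numerator reads against 6458 and 5849 reference reads. Of 27 receptor tyrosine kinases 6 were called higher and 11 lower (8 and 9 after centring); ERBB2 had 494 and 568 numerator reads against 1681 and 1279 reference reads, the collagen receptor DDR1 767 and 845 numerator reads against 2194 and 1938 reference reads, and its relative DDR2 went the other way with 5637 and 4635 numerator reads against 1407 and 1858 reference reads. Of 41 semaphorins, plexins, ephrins and netrins 8 were called higher and 15 lower (11 and 12 after centring), with NRP1, a semaphorin coreceptor, at 4570 and 4784 numerator reads against 10058 and 12983 reference reads. Of 40 regulators of G protein signalling 3 were called higher and 18 lower (4 and 12 after centring), and RGS4 had 669 and 586 numerator reads against 2203 and 1465 reference reads. Of 11 phosphodiesterases, which break down cyclic nucleotides, 0 were called higher and 6 lower (0 and 3 after centring); PDE4B had 36 and 15.99 numerator reads against 190.0 and 259 reference reads and PDE7B had 33 and 25.8 numerator reads against 231 and 157 reference reads. Of 20 genes of MAP kinase feedback 5 were called higher and 8 lower (7 and 6 after centring): the phosphatase DUSP4 had 1371 and 1310.3 numerator reads against 5454 and 5312 reference reads, but its relative DUSP5 had 1812 and 1710.2 numerator reads against 591 and 667 reference reads. Of 21 YAP and TAZ pathway genes 2 were called higher and 5 lower (3 and 3 after centring), and of 17 Notch pathway genes 3 were called higher and 2 lower (4 and 1 after centring). NF2, which restrains YAP, had 2182 and 2669 numerator reads against 6129.6 and 6165 reference reads, and the receptor NOTCH1 had 2765 and 2425 numerator reads against 1097 and 1066 reference reads.

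The IGF system, to which the gene changed in the labelled mice belongs, was split. Of 34 genes 6 were called higher and 12 lower (10 and 8 after centring), with a median of -0.33. IRS1, the adaptor beneath the insulin and IGF receptors, had 1097 and 1141 numerator reads against 2831 and 3784 reference reads, a log2 fold change of -1.56 (SE 0.18) by the authors' deposited table. PAPPA, a protease that frees IGF from its binding proteins, had 859 and 983 numerator reads against 2319 and 3481 reference reads, with -1.65 (SE 0.20) by the authors' deposited table. Its relative PAPPA2 moved the opposite way, with 1090 and 926 numerator reads against 199 and 361 reference reads and 1.85 (SE 0.25) by the authors' deposited table. GRB10, an inhibitor of the receptors, had 1222 and 1119.6 numerator reads against 347 and 329 reference reads.

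Glycolysis had the highest share of falls of the 53 lists as deposited and after centring, while with scaling to total reads 9 of its genes were called lower and nuclear transport had the higher share. Of 18 glycolytic genes 0 were called higher and 14 lower (0 and 11 after centring), with a median of -0.64. LDHA, which makes lactate, had 6334 and 7962 numerator reads against 27752 and 27315 reference reads, a log2 fold change of -1.95 (SE 0.15) by the authors' deposited table (adjusted p = 1.20e-35). GPI, at the second step, had 3176 and 3844 numerator reads against 8515 and 7974 reference reads, PFKL, at the committed step, had 966 and 1342 numerator reads against 2939 and 2949.8 reference reads, and GAPDH, which has many processed copies, had 38540 and 44376 numerator reads against 81669 and 78522 reference reads. Of 26 hypoxia targets 3 were called higher and 9 lower (6 and 3 after centring), so that the balance turned on centring. The glucose importer SLC2A1 had 2552 and 2925 numerator reads against 6563 and 5896 reference reads, while SLC2A3, another glucose importer, had 1814 and 1656 numerator reads against 503 and 756 reference reads.

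Among genes of mitochondrial and fatty acid metabolism, those of the tricarboxylic acid cycle and of fatty acid oxidation were called lower more often than higher, as deposited and after centring. Of 33 genes of the tricarboxylic acid cycle and pyruvate entry 1 were called higher and 16 lower (1 and 13 after centring), with DLAT, a core of pyruvate dehydrogenase, at 424 and 463 numerator reads against 1271 and 1226 reference reads and SDHA, of complex II, at 1220 and 1678 numerator reads against 2947 and 3092 reference reads. Of 26 genes of fatty acid oxidation 1 were called higher and 9 lower (1 and 7 after centring), and CPT1A, which admits fatty acids to mitochondria, had 487 and 583 numerator reads against 1842 and 1192 reference reads. Of 19 peroxisome genes 0 were called higher and 5 lower (0 and 3 after centring). As deposited, the share of peroxisome falls was near the 26.4% of all genes described, and after centring it was below their 18.5%. Of 29 genes in the list for sterol synthesis 8 were called higher and 5 lower (9 and 3 after centring). MYLIP, a ubiquitin ligase of that list and not an enzyme of synthesis, had 780 and 536 numerator reads against 105 and 117 reference reads. The enzyme ACAT2 had 306 and 349 numerator reads against 768 and 739 reference reads. Of 15 genes encoded by mitochondrial DNA 1 were called higher and 3 lower (6 and 2 after centring). MT-ND6, the complex I subunit on the light strand, had 7020 and 7069.6 numerator reads against 15202 and 22294 reference reads, a log2 fold change of -1.41 (SE 0.18) by the authors' deposited table, and the ribosomal RNA MT-RNR1 had 25978 and 28092 numerator reads against 38667 and 59794 reference reads.

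Nuclear transport genes were lower or not called as deposited, and 4 were called higher after centring. Of 49 nuclear pore and transport genes 0 were called higher and 35 lower (4 and 28 after centring), with a median of -0.63. CSE1L, which returns importin alpha to the cytosol, had 2326 and 2766 numerator reads against 6621 and 7491 reference reads, a log2 fold change of -1.47 (SE 0.15) by the authors' deposited table. KPNA2, an importin alpha, had 1641 and 1924 numerator reads against 4309 and 6213 reference reads, and the pore protein TPR had 2237 and 2484 numerator reads against 4744 and 4971 reference reads. KPNA2 is known to be more abundant in dividing cells.

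Genes of DNA repair and nucleotide supply were also called lower more often than higher. Of 73 repair genes 4 were called higher and 45 lower (7 and 36 after centring), with a median of -0.63. BRCA1, of homologous recombination, had 600 and 738 numerator reads against 1681 and 1672 reference reads, FANCD2, of crosslink repair, had 314 and 421 numerator reads against 1102 and 1299 reference reads, and XRCC5, the Ku80 subunit of end joining, had 3511 and 4317 numerator reads against 9123 and 9873 reference reads. Of 39 purine, pyrimidine and one-carbon enzymes 4 were called higher and 26 lower (4 and 20 after centring), with a median of -0.67. RRM1, the large subunit of ribonucleotide reductase, had 962 and 1229 numerator reads against 3423 and 3256 reference reads, a log2 fold change of -1.61 (SE 0.17) by the authors' deposited table, and IMPDH2, which commits to guanine nucleotides, had 2788 and 3379.8 numerator reads against 7463 and 6850.1 reference reads. An exception was ALDH1L2, a mitochondrial folate enzyme, with 1525 and 1275 numerator reads against 376 and 587 reference reads and 1.54 (SE 0.22) by the authors' deposited table. The 85 cell cycle genes left out fell in 80 cases, and the part of cell division in these falls was not tested.

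Chromatin and splicing genes were called lower more often than higher, as deposited and after centring. Falls among genes of transcription elongation and RNA decay were near the 26.4% of all genes described, and after centring these lists had more rises than falls. Of 86 chromatin remodelling and histone enzymes 10 were called higher and 42 lower (14 and 30 after centring). The methyltransferase EHMT2 had 580 and 833 numerator reads against 2048 and 2110.2 reference reads, and NSD2, another, had 1666 and 2316 numerator reads against 4799 and 5896 reference reads. The deacetylase HDAC9 rose, with 2523 and 1429.7 numerator reads against 214 and 279.5 reference reads and a log2 fold change of 3.00 (SE 0.25) by the authors' deposited table. KDM6B, which removes a repressive histone mark, had 2536 and 1889 numerator reads against 602 and 475 reference reads. Of 58 splicing factors 2 were called higher and 29 lower (3 and 27 after centring), with HNRNPA1, a gene of many processed copies, at 3581 and 4448 numerator reads against 11084 and 11592 reference reads and SRSF2 at 2254 and 2722 numerator reads against 5548 and 5359 reference reads. Of 41 genes of transcription elongation and RNA polymerase II 5 were called higher and 12 lower (9 and 8 after centring), and the largest polymerase subunit POLR2A had 9198 and 8737 numerator reads against 5901 and 5163 reference reads. Of 55 RNA decay regulators 9 were called higher and 15 lower (14 and 9 after centring); ZFP36, which destabilises cytokine messages, had 488 and 421 numerator reads against 177 and 105 reference reads.

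Translation factors and ribosome biogenesis genes were lower in part, and few cytosolic ribosomal protein genes were called. Of 45 translation factors 4 were called higher and 22 lower (4 and 17 after centring), and EIF4A2, a helicase of initiation, had 4592 and 4961 numerator reads against 10266 and 8608 reference reads. EIF1, which helps select the start codon, was an exception with 14126 and 13149 numerator reads against 7907 and 7283 reference reads. Of 50 ribosome biogenesis factors 3 were called higher and 23 lower (3 and 13 after centring); the nucleolar protein NPM1 had 8981 and 9119 numerator reads against 14795 and 15836 reference reads, a log2 fold change of -0.76 (SE 0.13) by the authors' deposited table. Of 75 cytosolic ribosomal proteins 2 were called higher and 13 lower (3 and 10 after centring), with a median of -0.18, near that of all genes, and their reads can be shared with processed copies. Of 75 mitochondrial ribosome genes 3 were called higher and 25 lower (4 and 10 after centring). After centring, the share of falls in this list was below the 18.5% of all genes described. MRPL18 rose, with 2242 and 2108 numerator reads against 950.1 and 938 reference reads.

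Cytoskeletal genes were more often lower. Of 30 tubulins and microtubule proteins 2 were called higher and 12 lower (6 and 10 after centring), and of 37 genes of the actin cytoskeleton 5 were called higher and 18 lower (5 and 11 after centring). TUBB, a beta-tubulin, had 10272 and 14320 numerator reads against 44638 and 47339.5 reference reads, and TUBA1B, an alpha-tubulin, had 8599 and 11699 numerator reads against 23441 and 26927 reference reads, though tubulin genes may share reads with close relatives. MAP2, a microtubule protein of neurons, rose, with 278 and 306 numerator reads against 34.7 and 21.2 reference reads, and the 6 neural markers, which include it, summed to 442 and 444 numerator reads against 123 and 92.8 reference reads. ANLN, which organises the dividing cell's ring, had 1358 and 1818 numerator reads against 4546 and 5462 reference reads, and PFN2, an actin-binding profilin, had 1484 and 1759 numerator reads against 3258 and 4459 reference reads. Of 23 keratins and epithelial junction genes 2 were called higher and 8 lower (2 and 8 after centring); KRT8 had 3745 and 4223 numerator reads against 7385 and 5584 reference reads, KRT18 had 1648 and 1921 numerator reads against 3651 and 3348 reference reads, and KRT7 rose, with 583 and 495 numerator reads against 298 and 233 reference reads.

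Some families of transcription factors held single strong changes. Of 45 homeobox, SOX and FOX genes 2 were called higher and 10 lower (4 and 7 after centring), and SOX9 had 1515 and 1398 numerator reads against 2641 and 2890.2 reference reads. The shares of falls in this family were below those of all genes described, 26.4% as deposited and 18.5% after centring. Of 36 nuclear receptors 4 were called higher and 13 lower (5 and 9 after centring): NR4A3, an orphan receptor induced early by many stimuli, had 208 and 140.3 numerator reads against 37.1 and 15.1 reference reads, and NR2F2 had 1029 and 1264 numerator reads against 3059 and 3033 reference reads. Of 17 KLF and SP factors 5 were called higher and 5 lower (7 and 3 after centring), with KLF4 at 148 and 103 numerator reads against 25.2 and 26.2 reference reads and KLF9 at 287 and 233 numerator reads against 1063 and 951 reference reads. Of 19 circadian clock genes 5 were called higher and 4 lower (5 and 4 after centring); the period gene PER1 had 1469 and 1122 numerator reads against 231 and 185 reference reads, a log2 fold change of 2.64 (SE 0.21) by the authors' deposited table, and PER2 had 859 and 634 numerator reads against 249 and 268 reference reads. Of 21 potassium and calcium channels 4 were called higher and 5 lower (5 and 5 after centring), with the calcium channel CACNA1G at 119 and 113 numerator reads against 1.58 and 3.03 reference reads and the potassium channel KCNMA1 at 2043 and 2160.5 numerator reads against 3712 and 4214 reference reads.

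**Figure D3:**
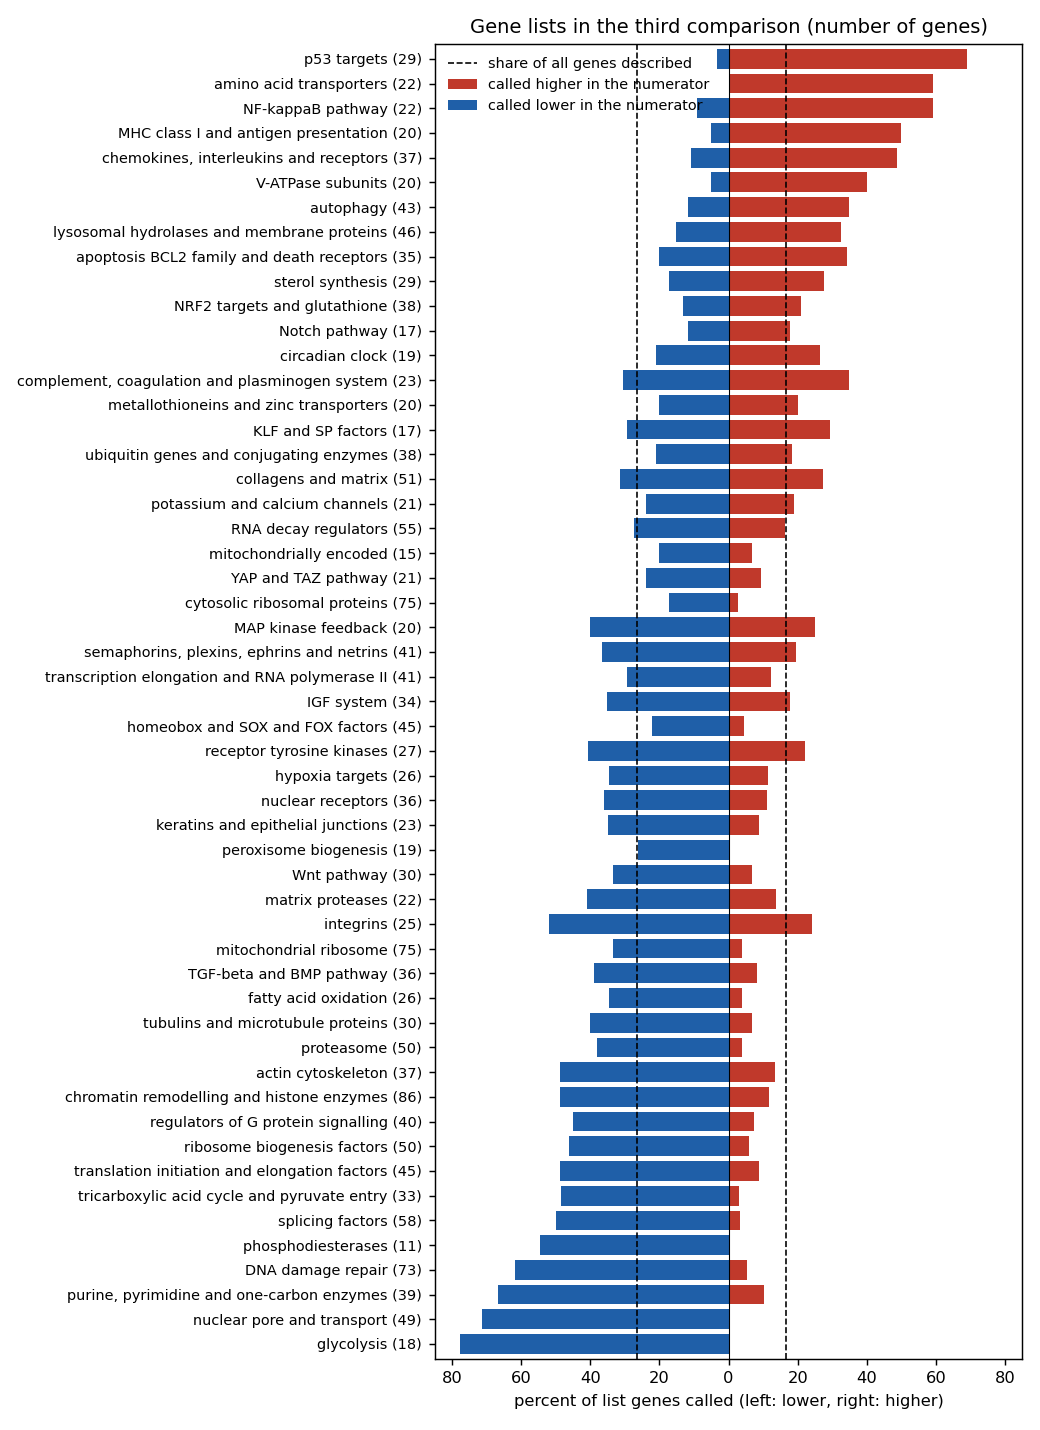
Percent of genes called higher (right, red) and lower (left, blue) in each of the 53 gene lists, with the number of genes in parentheses and dashed lines at the shares of all 13340 genes described, 16.6% higher and 26.4% lower. Targets of p53, amino acid transporters and NF-kappaB genes stand at the top, and glycolysis, nuclear transport and nucleotide enzymes at the bottom.

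Among abundant genes outside these lists, MME, the membrane protease neprilysin, had 7802 and 7244 numerator reads against 2668 and 3625 reference reads, with a log2 fold change of 1.26 (SE 0.17) by the authors' deposited table. LCP1, an actin bundler known from leukocytes, had 7798 and 7054 numerator reads against 2974 and 3389 reference reads. DHRS2, a short-chain dehydrogenase, fell, with 8856 and 10823 numerator reads against 36338 and 54102 reference reads and -2.20 (SE 0.19) by the authors' deposited table. DCBLD2, a membrane receptor, had 8779 and 9164 numerator reads against 19944 and 29225 reference reads. Of abundant genes inside the lists, PHLDA1 of MAP kinase feedback had 8640 and 7590.0 numerator reads against 16315 and 16276 reference reads. AKR1B1, an aldose reductase listed with the NRF2 targets, had 9006 and 7441 numerator reads against 4159 and 2138 reference reads with a large error, 1.38 (SE 0.48), in the authors' deposited table.

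Another set of rises had hardly any reads in the reference. PRRG3, a vitamin K-dependent membrane protein, had 1257 and 653 whole reads in the numerator libraries and 10 and 1 in the reference libraries. NEU4, a sialidase, had 118 and 88 against 0 and 1, CRYM, a thyroid hormone-binding crystallin, 183 and 88 against 0 and 1, and SPRR2D, of the skin barrier, 87 and 85 against 1 and 0. Whole reads of BMP7, a ligand of the BMP pathway, were 198 and 86 in the numerator libraries and 0 in both reference libraries. For these genes the size of a fold rests on a few reference reads and none is given. DHDH, a dehydrogenase, had 76 and 91 whole reads against 1 and 0. EGR2, ERG, GABRR2, IGHE, MCF2L and NLRP5 had 72 to 127 whole reads in the first numerator library, 42 to 148 in the second and 0 in both reference libraries.

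The fourth comparison has the same numerator libraries and another pair of reference libraries, so values of the 2 comparisons are not independent and are given side by side. In the fourth, 2605 of the 13340 genes were called higher (19.5%) and 3620 lower (27.1%). Of the 245 named genes, 233 were called in the same direction there and 12 were not called. The 12 genes without a call in the fourth included the matrix genes COL6A3 and VCAN, with -0.22 (SE 0.21) and -0.49 (SE 0.25) there by the authors' deposited table. For the fourth comparison the authors' deposited table gives PAPPA -0.37 (SE 0.24) and IRS1 -0.55 (SE 0.24). FLG had -0.38 (SE 0.32), TSPEAR-AS1 -0.02 (SE 0.35) and CIITA 0.12 (SE 0.35) there by the authors' deposited table, and ADAM10, MMP16, PDE4A, PEX6 and SP3 were the others. Whether these values differ between the comparisons was not tested.

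Some lists also had other counts against the second reference pair. Proteasome genes were called lower in 19 of 50 cases in the third comparison and in 35 in the fourth. Cytosolic ribosomal proteins had 13 falls among 75 genes by the third comparison and 36 by the fourth, and mitochondrial ribosome genes had 25 falls among 75 by the third comparison and 43 by the fourth. Targets of p53 had 20 rises and 1 fall in the third and 13 rises and 3 falls in the fourth, while amino acid transporters had 13 rises and 0 falls in the third and 16 rises and 1 fall in the fourth. Hypoxia targets had 3 rises and 9 falls in the third and 8 rises and 2 falls in the fourth. The difference between these counts was not tested.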

How the data were processed

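RNA sequencing results of unnamed libraries were read from a single table of 4 comparisons with 7 columns each. The base means are normalised read counts, a signal averaged over libraries, per the file headers and as the authors deposited them. Per the file headers the authors deposited a log2 fold change with its standard error, a test score, a p-value and an adjusted p for each gene. Aligner, counter, annotation and build: not given in the sources used here.

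Whole reads of 8 libraries were solved from the base means of all 4 comparisons by lattice reduction, a step tested on simulated data. Size factors recomputed from the solved reads differed by at most 0.0150%. Log2 ratios of side means differed from the deposited fold changes by a median of 0.0013 and a 99th percentile of 0.031. The deposited fold changes had set the start values of the solving, so their closeness is not separate support for the solved reads. These steps used Python 3.11.15, numpy 2.4.6, pandas 2.3.3 and scipy 1.17.1. The labels' 10 samples could not be joined to any library.

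A gene counted as called where the adjusted p of the authors, taken over all tested genes, was under 0.05. Centred values subtract the median log2 fold change of genes of at least 2 CPM, with p-values recomputed from the deposited standard errors and readjusted by the Benjamini-Hochberg method. A refit of the solved reads with voom (limma 3.58.1, R 4.3.3) was an alternative chosen after seeing the data. Gene lists were described by counts and medians, with no set test. The members, the 53 gene lists and the 3 lists left out were chosen with earlier results of these data known, and the 3 lists were rewritten by hand. Named genes were the 12 largest rises and 12 largest falls with at least 2 CPM on both sides, the 10 most abundant called rises and falls past a log2 fold change of 1, up to 4 called genes of each list by smallest p, and the 12 largest rises with a reference mean under 2 CPM. The text gives a part of them, and 2 genes that the rule took are not reported here. Genes named for clones or as pseudogenes and genes used to tell sex were not named. No sequences or coordinates are given, since the reference used here is of mouse.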

Additional observations from a re-analysis of the deposited data

How the results depend on the processing

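No paired analysis was possible because the libraries carry no replicate numbers. A minimum base mean of 10 CPM left 1416 higher calls. The labels' selection, a log2 fold change over 1 in size with an unadjusted p under 0.05, took 2523 genes, 1416 higher and 1107 lower, and the same fold limit with the adjusted p took 2388, of which 1333 were higher and 1055 lower. Scaling to total reads left 2322 lower calls. Medians of the 5 level classes became 0.52, 0.098, -0.066, -0.13 and -0.14 on centring. Called genes that were higher made up 30.2% at a minimum of 10 CPM and 48.0% with no minimum. The voom refit called 6685 genes, 2641 higher and 4044 lower, and 5732 genes were called in one direction by both tests. Leaving out each library in turn, it called 3473 to 6047 genes, 1595 to 2356 higher and 1878 to 3691 lower, the fewest without the first numerator library, where a side of 1 library is assumed to vary like the other. Of the 245 named genes, 239 to 244 were still called. The lost calls were MT-ATP8, MT-RNR2, RBPJ, PEX6, PDE4A and PEX16 without the first numerator library, and MT-ATP8, MT-RNR2, RBPJ or PEX6 without another. Centring ended the call of 5 named genes, MT-RNR2, RBPJ, PEX6, PDE4A and PEX16, and moved 29 of 106 counts of list genes by over 1.5 times. Requiring a log2 fold change over 1 in size moved 76 of the 106 counts by that measure. Causes were not tested. With 2 libraries a side, genes of few reads had large errors, and a gene that was not called is not shown to be unchanged.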
